A study of Mus musculus with 10 samples.

Results

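The genes described here are 9 markers of the subfields of the mouse hippocampus, namely Wfs1 and Fibcd1 for field CA1, Pcp4, Amigo2 and Nr3c2 for field CA2, Nnat for field CA3, and C1ql2, Dsp and Tdo2 for the dentate gyrus. Every probe set whose only gene symbol in the platform annotation was one of these 9 was taken, whatever its value, which gave 14 of 45037 probe sets and 9 of 18193 genes. RNA came from 10 whole hippocampi of adult SJL/J females, frozen fresh when 2 days had passed since an axonal lesion. In the TPlp+AxL group, 5 mice had an adoptive transfer of T cells specific for proteolipid protein, a myelin protein, and then the lesion. In the AxL group, 5 mice had the lesion and no transfer is named in their labels. Both groups carried the lesion, and no mice without it were analysed here, so the values compare T cell transfer on top of a lesion with a lesion alone. Each mouse gave 1 array, and all values below are log2 signals.

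The hippocampus is a chain of neuronal fields: granule cells of the dentate gyrus send mossy fibres to CA3 pyramidal cells, CA3 sends axons to CA1, and CA2 lies between CA3 and CA1. Each field is richer than the others in some genes, which is why such genes are used to outline the fields in sections. A marker in this sense need not be confined to its field. The entorhinal cortex provides the main cortical input, and its axons end on dendrites of the dentate gyrus and of the CA fields. An array of the whole hippocampus averages over all fields. A marker's signal therefore depends on how many cells that express it were in the sample and on how much of the RNA each held. Fewer cells cannot be told apart from less RNA per cell.

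Promoter sequences are shown for the 3 genes on which the results turn: Nnat, the gene that differed between the groups, and C1ql2 and Tdo2, dentate genes that stood at opposite ends of the range in 1 array. Each is the 250 bases before the annotated start in RefSeq, build GRCm38.p6, 5′ to 3′ on the strand of the gene, with CG dinucleotides in capitals because they are the sites of DNA methylation. The Nnat stretch is chr2:157559828-157560077 on the plus strand, the C1ql2 stretch is chr1:120340332-120340581 on the plus strand and the Tdo2 stretch is chr3:81975729-81975978 on the minus strand.
Nnat: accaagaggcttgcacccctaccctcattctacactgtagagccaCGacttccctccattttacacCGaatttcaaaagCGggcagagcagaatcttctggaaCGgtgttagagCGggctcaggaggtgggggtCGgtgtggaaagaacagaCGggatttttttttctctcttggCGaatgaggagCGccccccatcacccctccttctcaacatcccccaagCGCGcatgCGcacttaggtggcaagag
C1ql2: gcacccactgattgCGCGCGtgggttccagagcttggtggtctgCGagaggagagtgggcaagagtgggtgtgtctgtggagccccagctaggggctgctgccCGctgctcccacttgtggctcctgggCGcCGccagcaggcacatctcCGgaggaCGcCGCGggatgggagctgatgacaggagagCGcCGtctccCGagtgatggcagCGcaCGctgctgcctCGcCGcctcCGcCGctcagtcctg
Tdo2: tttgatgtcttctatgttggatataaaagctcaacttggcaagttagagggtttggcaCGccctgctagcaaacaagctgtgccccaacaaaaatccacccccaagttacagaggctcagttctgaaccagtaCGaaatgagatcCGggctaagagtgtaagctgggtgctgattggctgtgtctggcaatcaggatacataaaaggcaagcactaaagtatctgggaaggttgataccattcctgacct

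Nnat had 12 CG dinucleotides in this window, C1ql2 had 20 and Tdo2 had 3. Across 32851 mouse promoters of the same length the median was 6, with quartiles of 2 and 16. The other members ran from 3 in Pcp4 to 38 in Amigo2, so the subfield markers had no common promoter type by this measure. The interferon gamma-activated site TTCNNNGAA was in 0 of the 9 member windows and in 7.02% of all promoters, searched on both strands. The cyclic AMP element TGACGTCA was in 0 of 9 and in 1.55% of all. These counts describe the letters of the windows only.

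Before the members are described, 2 features of the arrays bear on them. AxL 4 stood apart: its highest correlation with any other array was 0.993, against 0.996 to 0.998 for the other 9, and it held the highest or the lowest value of the 10 arrays in 42.8% of all probe sets, against 11.6% to 22.7% for the others. The change of each member is therefore given with and without AxL 4. Genes of the choroid plexus, the secretory tissue that borders the hippocampus, averaged 9.62 in TPlp+AxL 1, 10.43 in AxL 3 and 9.53 in AxL 5 and lay between 8.21 and 8.36 in the other 7 arrays. Genes that leukocytes express averaged 9.71 to 10.29 in TPlp+AxL and 9.23 to 9.43 in AxL.

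The study set TPlp+AxL against AxL to find transcripts that T cells raise or lower in lesioned hippocampi. Of the 14 member probe sets, 1 passed the threshold of 0.05 on limma's Benjamini-Hochberg adjusted p, that of Nnat, and it was lower in TPlp+AxL. Over all probe sets 0.835% passed in either direction, 0.189% lower and 0.646% higher. Nnat was also the only one of the 14 whose groups did not overlap, which was so for 3.59% of all probe sets in either direction and for 1.64% with every TPlp+AxL array below every AxL array. The other 13 probe sets of 8 genes had changes whose 95% intervals included 0 and adjusted p from 0.356 to 0.998 in limma. Those intervals reached from -0.62 to 0.59, and a missed threshold does not show that a gene was the same in both groups.

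**Figure D1:**
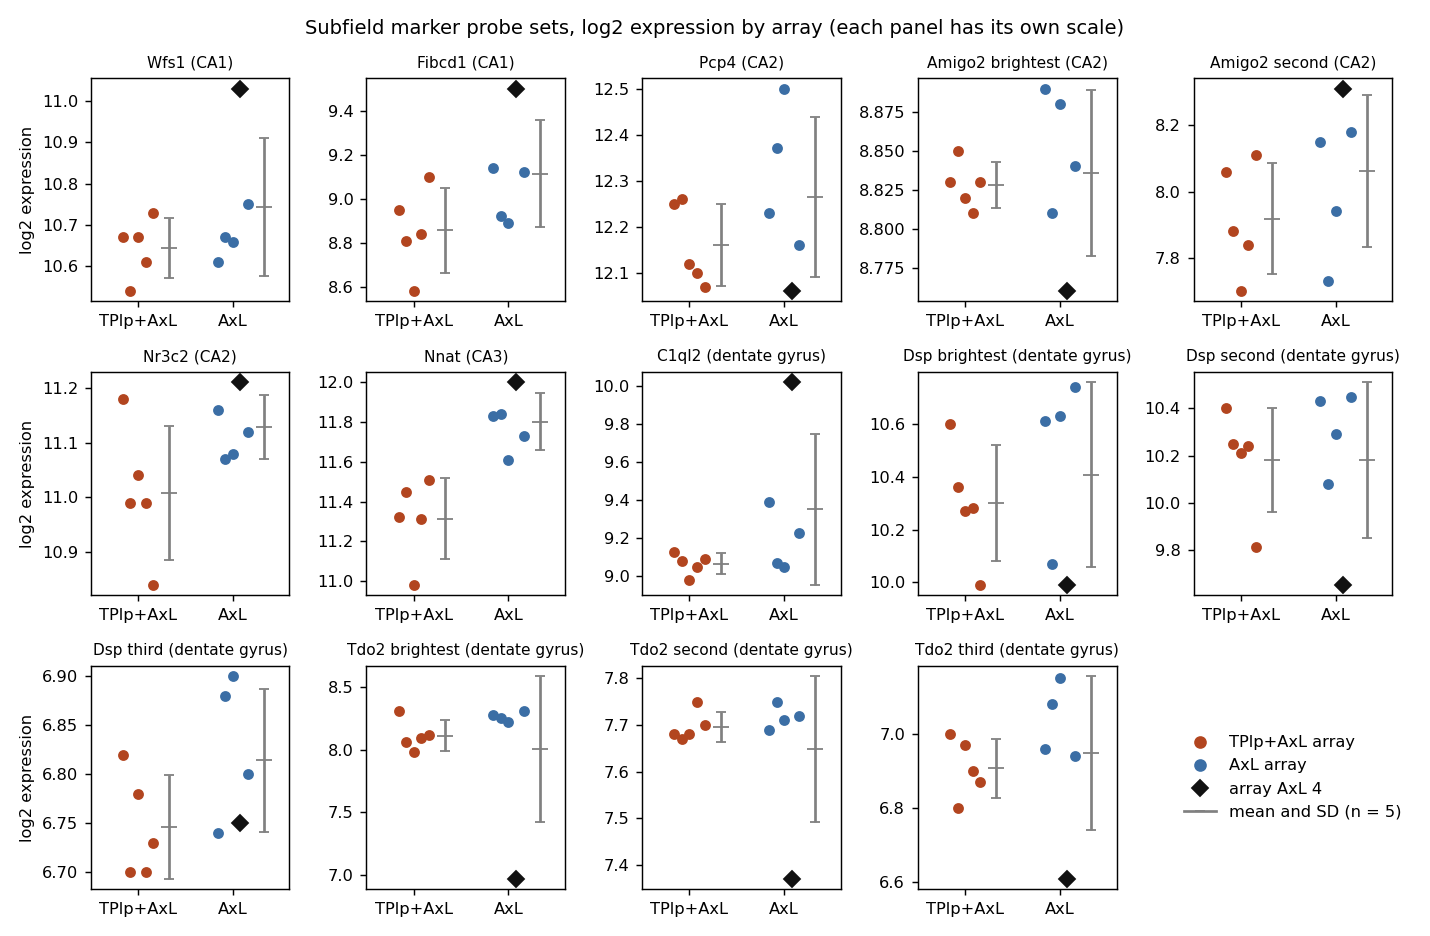
Log2 signal (vertical axis, its own scale in each panel) of the 14 member probe sets in each array, with TPlp+AxL on the left and AxL on the right of each panel. Points are arrays, bars beside them are the mean and SD of 5 arrays, and AxL 4 is the black diamond. Nnat is the panel in which the groups do not overlap (10.98 to 11.51 in TPlp+AxL, 11.61 to 12.00 in AxL), and in most panels the range of the AxL group is set by AxL 4.

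Wfs1 and Fibcd1 mark CA1 pyramidal cells. Wfs1 encodes wolframin, a membrane protein of the endoplasmic reticulum that takes part in calcium balance and in the response to unfolded proteins. Its log2 signal was 10.67, 10.54, 10.67, 10.61 and 10.73 in TPlp+AxL 1 to 5, against 10.61, 10.67, 10.66, 11.03 and 10.75 in AxL 1 to 5. The groups overlapped, AxL 4 was the high array, and the change was -0.10 (SE 0.07, adjusted p = 0.545 in limma) with all arrays and -0.03 (adjusted p = 0.82) without AxL 4. Fibcd1 encodes a membrane receptor that binds chitin and other acetylated compounds. It gave 8.95, 8.81, 8.58, 8.84 and 9.10 in TPlp+AxL, against 9.14, 8.92, 8.89, 9.50 and 9.12 in AxL. TPlp+AxL 3 was the low end and AxL 4 the high end, and 3 of the 5 TPlp+AxL arrays lay below every AxL array. The group means of Fibcd1 were 8.86 ± 0.19 in TPlp+AxL and 9.11 ± 0.25 in AxL (SD, n = 5 each), and the change was -0.26 (adjusted p = 0.356 in limma, SE 0.12, 95% interval -0.52 to 0.00). Without AxL 4 it was -0.16 (adjusted p = 0.486), so that array carried a large share of the difference.

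The 3 CA2 markers differ in what they encode. Pcp4 is a small IQ-motif peptide that binds calmodulin and speeds its exchange of calcium. Its signal was 12.25, 12.26, 12.12, 12.10 and 12.07 in TPlp+AxL, against 12.23, 12.37, 12.50, 12.06 and 12.16 in AxL. The arrays were mixed, with AxL 3 highest and AxL 4 lowest, and the change was -0.10 (SE 0.08, adjusted p = 0.55 in limma) with all arrays and -0.15 (adjusted p = 0.377) without AxL 4. This is one of the member changes whose sign depends on the scaling of the arrays, being 0.04 after a further quantile normalization and 0.02 after cyclic loess. Nr3c2 encodes the mineralocorticoid receptor, which binds corticosterone with high affinity in hippocampal neurons. It gave 11.18, 10.99, 11.04, 10.99 and 10.84 in TPlp+AxL, against 11.16, 11.07, 11.08, 11.21 and 11.12 in AxL. Apart from TPlp+AxL 1, every TPlp+AxL array was below every AxL array, and the change was -0.12 (SE 0.06, 95% interval -0.24 to 0.01, adjusted p = 0.382 in limma). Without AxL 4 it was -0.10 (adjusted p = 0.506).

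Amigo2 encodes a leucine-rich repeat adhesion protein of the cell surface and had 2 probe sets that behaved differently. The brighter one, of a type whose probes can also match other sequences, gave 8.83, 8.85, 8.82, 8.81 and 8.83 in TPlp+AxL, against 8.89, 8.81, 8.88, 8.76 and 8.84 in AxL. Its SD was 0.01 in TPlp+AxL and 0.05 in AxL (n = 5 each), and its change was -0.01 (SE 0.03, 95% interval -0.08 to 0.07, adjusted p = 0.939 in limma), the narrowest interval of all members. The second gave 8.06, 7.88, 7.70, 7.84 and 8.11 in TPlp+AxL, against 8.15, 7.73, 7.94, 8.31 and 8.18 in AxL. It varied more from array to array, and its change was -0.15 (SE 0.11, adjusted p = 0.554 in limma). Without AxL 4 the changes were -0.03 (adjusted p = 0.766) for the brighter and -0.08 (adjusted p = 0.764) for the second. AxL 4 was the lowest array in the first and the highest in the second, so the 2 probe sets ordered the same mice in different ways.

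Nnat, the CA3 marker and the one member that fell, encodes neuronatin, a small membrane protein of the endoplasmic reticulum that resembles phospholamban, a regulator of the calcium pump SERCA2. It is expressed from the paternal allele, and the gene lies inside the span of Blcap. Its signal was 11.32, 11.45, 10.98, 11.31 and 11.51 in TPlp+AxL, against 11.83, 11.84, 11.61, 12.00 and 11.73 in AxL. The highest TPlp+AxL array was under the lowest AxL array, with TPlp+AxL 3 the lowest and AxL 4 the highest. The means were 11.31 ± 0.21 in TPlp+AxL and 11.80 ± 0.14 in AxL (SD, n = 5 each), a log2 change of -0.49 (SE 0.10, 95% interval -0.71 to -0.28, adjusted p = 0.045 in limma), which is 0.712-fold with an interval of 0.613 to 0.826. The adjusted p was close to the threshold. With AxL 4 left out the groups still did not overlap and the change was -0.44 (adjusted p = 0.0778), and over the 10 arrays left out in turn the adjusted p ran from 0.0474 to 0.125 and passed 3 times. After a further quantile normalization the change was -0.38 (adjusted p = 0.139), and after cyclic loess it was -0.38 (adjusted p = 0.136).

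C1ql2, Dsp and Tdo2 mark dentate granule cells. C1ql2 encodes a secreted C1q-like protein that granule cells release at mossy fibre synapses. Its signal was 9.13, 9.08, 8.98, 9.05 and 9.09 in TPlp+AxL, against 9.39, 9.07, 9.05, 10.02 and 9.23 in AxL. The TPlp+AxL arrays lay close together at the low end, and AxL 4 was 0.90 above the mean of the other 9 arrays. The means were 9.06 ± 0.06 in TPlp+AxL and 9.35 ± 0.40 in AxL (SD, n = 5 each), and the change was -0.29 (adjusted p = 0.413 in limma, SE 0.15, 95% interval -0.62 to 0.05). Without AxL 4 it was -0.12 (adjusted p = 0.463).

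Tdo2 encodes tryptophan dioxygenase, which opens the kynurenine pathway and is used as a marker of mature granule cells in the mouse. Its brightest probe set gave 8.31, 8.06, 7.98, 8.09 and 8.12 in TPlp+AxL, against 8.28, 8.25, 8.22, 6.97 and 8.31 in AxL. AxL 4 differed from the mean of the other 9 arrays by -1.21, the widest gap of any array from the rest in the members, while the other 4 AxL arrays had an SD of 0.04. The change was 0.10 (SE 0.22, adjusted p = 0.857 in limma), and without AxL 4 it was -0.16 (adjusted p = 0.288). The second probe set gave 7.68, 7.67, 7.68, 7.75 and 7.70 in TPlp+AxL, against 7.69, 7.75, 7.71, 7.37 and 7.72 in AxL. The third gave 7.00, 6.80, 6.97, 6.90 and 6.87 in TPlp+AxL, against 6.96, 7.08, 7.15, 6.61 and 6.94 in AxL. AxL 4 was the lowest array in all 3 Tdo2 probe sets, and their changes of 0.10, 0.05 and -0.04 became -0.16, -0.02 and -0.13 without it, none past the threshold.

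Dsp encodes desmoplakin, which links desmosomes to intermediate filaments in epithelia and heart and is expressed by granule cells in the mouse brain. Its brightest probe set gave 10.60, 10.36, 10.27, 10.28 and 9.99 in TPlp+AxL, against 10.61, 10.07, 10.63, 9.99 and 10.74 in AxL. The second gave 10.40, 10.25, 10.21, 10.24 and 9.81 in TPlp+AxL, against 10.43, 10.08, 10.29, 9.65 and 10.45 in AxL. In both, AxL 4 and TPlp+AxL 5 were the lowest arrays and the groups covered nearly the same range. The changes were -0.11 (SE 0.16, adjusted p = 0.772 in limma) and 0.00 (SE 0.15, adjusted p = 0.998). Without AxL 4 they were -0.21 (adjusted p = 0.532) and -0.13 (adjusted p = 0.634). The third probe set, with 6.70 to 6.82 in TPlp+AxL and 6.74 to 6.90 in AxL, did not follow that order, and its change was -0.07 (SE 0.04, adjusted p = 0.471 in limma), or -0.09 (adjusted p = 0.431) without AxL 4.

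**Figure D2:**
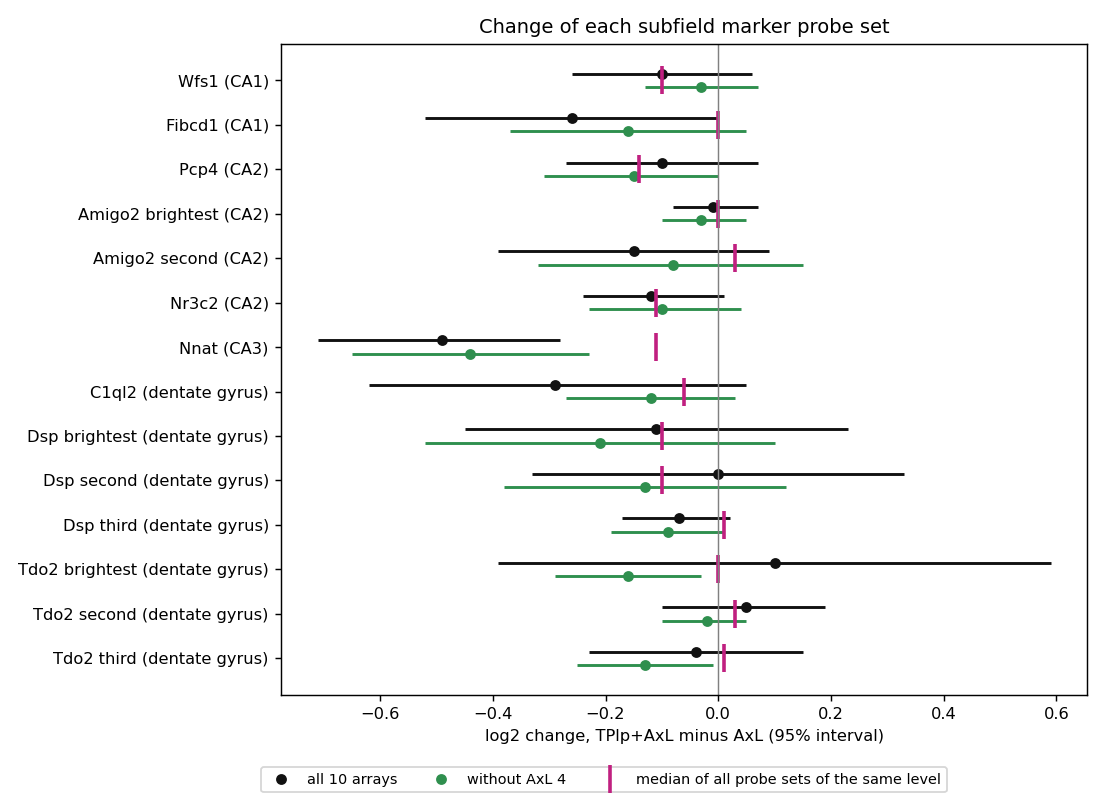
Log2 change, TPlp+AxL minus AxL, of each member probe set with its 95% interval (horizontal axis), from all 10 arrays (black) and without AxL 4 (green). Magenta ticks are the median change of all probe sets in the same range of signal. The Nnat interval (-0.71 to -0.28) lies below 0, and the 3 positive or zero estimates, of Dsp and Tdo2, move below 0 without AxL 4.

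AxL 4 held the highest value of the 10 arrays in 6 of the 14 member probe sets and the lowest in 7, and was inside the range in 1, the third of Dsp. The share of all probe sets in which it was highest was 23.1% and the share in which it was lowest was 19.7%. Relative to the mean of the other 9 arrays it was higher in the CA1 markers, by 0.37 in Wfs1 and 0.58 in Fibcd1, in Nnat by 0.49, in Nr3c2 by 0.16 and in the second Amigo2 probe set by 0.35. In the other CA2 values it differed by -0.16 in Pcp4 and by -0.08 in the brighter Amigo2 probe set. Within the dentate gyrus it was higher in C1ql2 by 0.90 and differed by -0.41, -0.59 and -0.03 in the 3 Dsp probe sets and by -1.21, -0.34 and -0.35 in those of Tdo2. The dentate genes C1ql2 and Tdo2 thus stood on opposite sides in the same mouse. In CA2 the gaps of Pcp4 and Nr3c2 were small. Pcp4 was 12.06 in AxL 4, where the lowest of the other 9 was 12.07. Nr3c2 was 11.21 in AxL 4, where the highest of the other 9 was 11.18. Among the 8 other dentate genes, each by its brightest probe set, AxL 4 was highest in 4 and lowest in 0. The brightest probe set of Prox1, the granule cell transcription factor, was 8.25 in AxL 4, inside the range of 7.82 to 8.60 in the other 9. The dimmer Prox1 probe sets gave 7.41 in AxL 4, above the 6.57 to 6.83 of the others, and 7.10, inside their 6.97 to 7.30.

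Genes that neuronal activity induces were high in AxL 4. This list of 18 genes was put together after the values had been seen. AxL 4 was the highest array in 17 of the 18, with a median of 0.92 above the mean of the other 9 arrays, and the list averaged 10.69 in AxL 4, against 9.67 to 9.85 in TPlp+AxL and 9.58 to 9.92 in the other AxL arrays. Arc, an immediate early gene of synapses, was 10.93 in AxL 4 and 8.90 to 9.73 in the other 9. Nptx2, a pentraxin of excitatory synapses, was 10.35 in AxL 4 and 8.76 to 9.06 in the others. None of the 18 passed the threshold between the groups. An unadjusted p under 0.05 in limma was found for 2 of the 18, and for 14.3% of all probe sets. The part of the activity pattern in the member values was not tested.

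**Figure D3:**
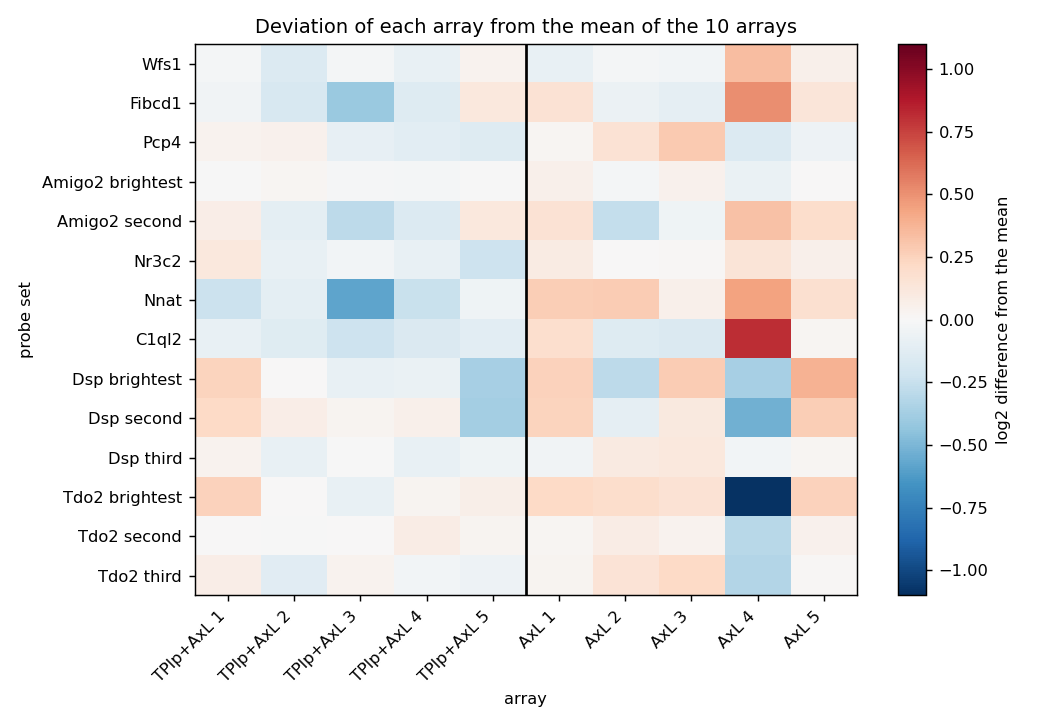
Difference of each array from the mean of all 10 (colour scale, log2) for the 14 member probe sets (rows), with TPlp+AxL arrays in the left columns and AxL arrays in the right columns. The AxL 4 column holds the strongest colours in both directions, blue in the brightest Tdo2 probe set (6.97) and red in C1ql2 (10.02).

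In the deposited values, bright probe sets as a whole were slightly lower in TPlp+AxL. By range of signal, the median change over all probe sets came to 0.01 where the mean signal was under 7, 0.03 from 7 to 8, 0.00 from 8 to 9, -0.06 from 9 to 10, -0.10 from 10 to 11, -0.11 from 11 to 12 and -0.14 over 12. Of the 14 member probe sets 11 had a change under 0, as did 51.7% of all probe sets, and the member median was -0.10, against -0.0034 over all. Among the 7 member probe sets with a mean signal above 9, 6 had a change under 0, in a range where 74.4% to 94.8% of all probe sets did. Set against the median of its own signal range, Nnat stood at -0.38 and the other 13 between -0.25 in Fibcd1 and 0.11 in Tdo2. From 11 to 12 the median over all probe sets was 0 after a further quantile normalization and -0.01 after cyclic loess. Both steps remove differences between arrays that follow the signal level, so medians near 0 follow from the method. They do not show the source of the fall in the deposited values, which was not tested. After quantile or cyclic loess normalization 9 of the 14 members were under 0 and the member median was -0.03 and -0.02. Without AxL 4 all 14, which are probe sets of 9 genes, were under 0, against 51% of all probe sets. That 51% covers all ranges of signal and was not split by range.

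**Figure D4:**
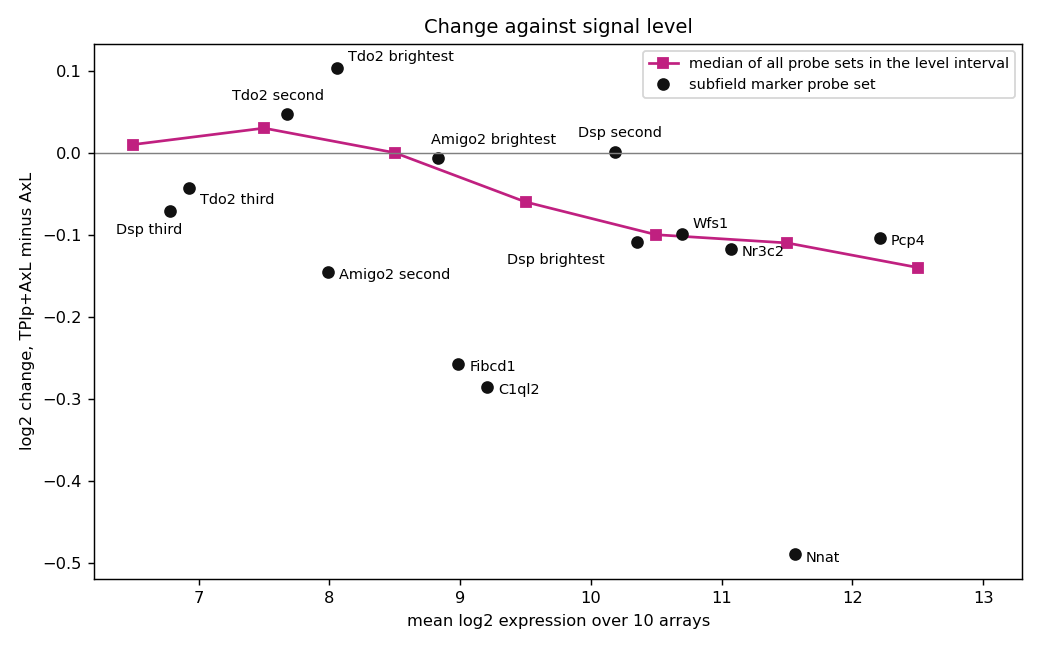
Log2 change, TPlp+AxL minus AxL (vertical axis), against the mean log2 signal over the 10 arrays (horizontal axis) for the 14 named member probe sets, with squares joined by a line for the median change of all probe sets per range of signal. The line, from the deposited values, falls with the signal, Fibcd1 (-0.26) and C1ql2 (-0.29) lie below it, and Nnat (-0.49) lies farthest below.

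Other genes were read in 18 lists that go with the subfields or with the members' functions, each gene by its brightest probe set. Of 121 measured genes 7 passed, which is 5.79%, where 0.835% of all probe sets did. The 5 that were higher in TPlp+AxL were all of the leukocyte list, and 2 genes were lower. By the brightest probe set, none of the 23 other CA1, CA2, CA3 and dentate markers passed. Those lists had 5, 4, 6 and 8 measured genes and median changes of -0.06, -0.08, -0.09 and -0.11. Nearest to the threshold were Mpped1 in CA1 with -0.23 (adjusted p = 0.397 in limma), Avpr1b, a vasopressin receptor of CA2, with 0.11 (adjusted p = 0.21), Cpne4 in CA3 with -0.18 (adjusted p = 0.466) and Gsg1l, an auxiliary AMPA receptor subunit of the dentate list, with -0.29 (adjusted p = 0.254). These genes had 20 other, dimmer probe sets, of which 1 rose and none fell: Igfbp5, an insulin-like growth factor binding protein of the dentate list, gave 10.89, 11.47, 11.26, 11.34 and 10.98 in TPlp+AxL, against 10.59, 10.73, 10.37, 10.77 and 10.60 in AxL. The groups of this probe set did not overlap, and its change was 0.57 (SE 0.11, adjusted p = 0.0396 in limma), or 0.61 (adjusted p = 0.0421) without AxL 4. The brightest Igfbp5 probe set had a change of -0.08, so the probe sets of this gene differed in sign. Over all lists, 1 of 137 dimmer probe sets passed, that of Igfbp5, where 0.835% of all probe sets did. In the hilar mossy cell list the median was -0.01 over 4 genes, with Ociad2 at -0.17 (adjusted p = 0.424). All 13 general neuronal genes had a change under 0, with a median of -0.22, and none passed. Their signals were above 9, where 74.4% to 94.8% of all probe sets had a change under 0, with medians of -0.06 to -0.14 by range. Syp, a protein of synaptic vesicles, was nearest at -0.36 (adjusted p = 0.0663 in limma), and it passed without AxL 4, at -0.28 (adjusted p = 0.0188). It did not pass with any of the other 9 arrays left out in turn. Nor did it after quantile (-0.25, adjusted p = 0.138) or cyclic loess normalization (-0.24, adjusted p = 0.166). The dimmer probe sets of the neuronal genes had no common sign: 8 of 17 had a change above 0, the second of Syp (0.10) among them, and none passed.

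**Figure D5:**
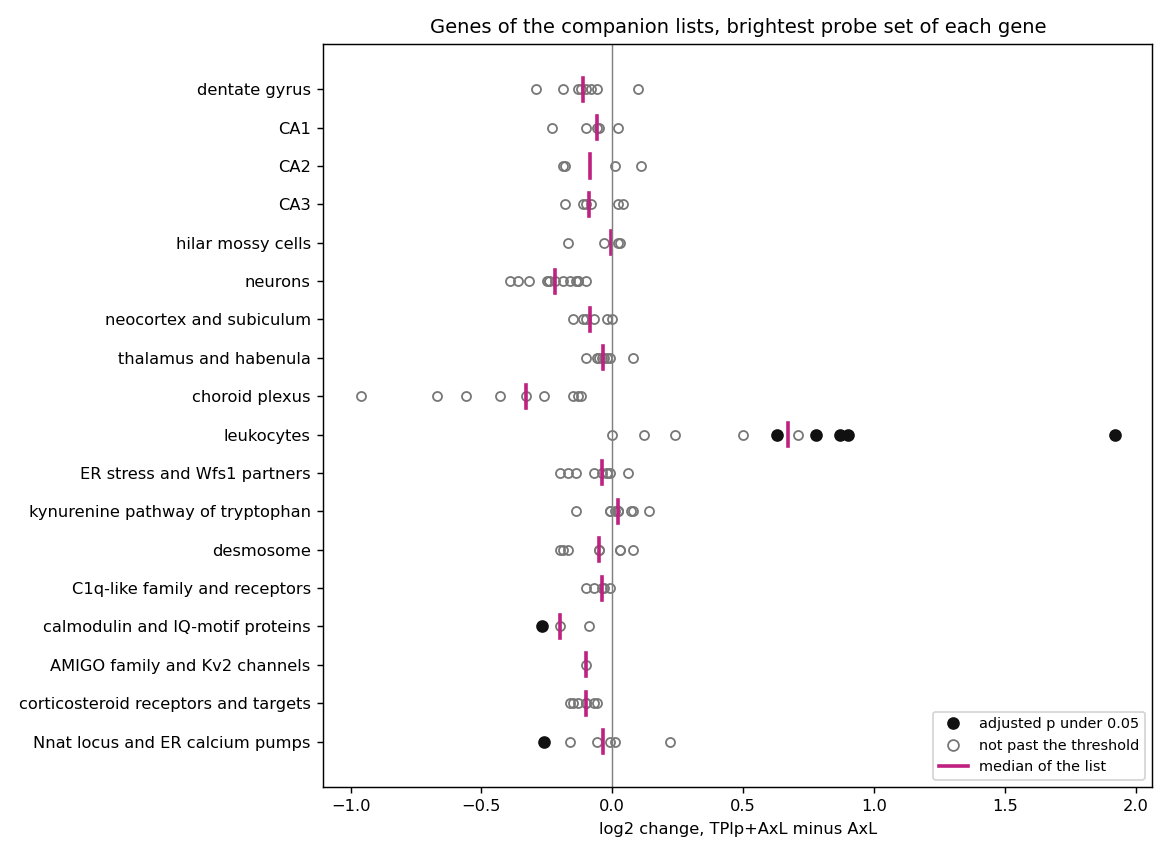
Log2 change, TPlp+AxL minus AxL (horizontal axis), of every measured gene of the companion lists (rows), with the list median as a bar and genes past the threshold filled. The subfield lists centre just under 0 (medians -0.06 to -0.11), the neuronal list at -0.22 and the leukocyte list at 0.67.

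Genes tied to the functions of the members were mostly not past the threshold either. In the list of the Nnat locus and the calcium pumps of the endoplasmic reticulum, 1 of 6 fell: Atp2a2, which encodes the pump SERCA2. It gave 13.13, 13.03, 12.93, 12.90 and 12.98 in TPlp+AxL, against 13.21, 13.18, 13.29, 13.35 and 13.25 in AxL. The groups of this probe set did not overlap, and the change was -0.26 (SE 0.05, adjusted p = 0.0372 in limma), while the other 5 Atp2a2 probe sets ran from -0.23 to 0.03 and did not pass. The call was lost after quantile normalization (-0.12, adjusted p = 0.262) and cyclic loess (-0.12, adjusted p = 0.169), and with 8 of the 10 arrays left out in turn, AxL 4 among them (adjusted p = 0.068), where the highest adjusted p was 0.118. Blcap, whose span holds Nnat, gave 10.27, 10.21, 10.01, 10.15 and 10.39 in TPlp+AxL, against 10.34, 10.25, 10.35, 10.71 and 10.20 in AxL. Its groups overlapped, unlike those of Nnat, and its change was -0.16 (adjusted p = 0.451 in limma).

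Among calmodulin and IQ-motif proteins, the kind to which Pcp4 belongs, 1 of 3 measured genes fell. Nrgn encodes neurogranin, a calmodulin-binding protein of forebrain dendrites, and gave 12.07, 12.18, 12.13, 12.08 and 12.14 in TPlp+AxL, against 12.32, 12.39, 12.48, 12.37 and 12.38 in AxL. Every TPlp+AxL array lay below every AxL array, and the change was -0.27 (SE 0.04, adjusted p = 0.0078 in limma). It was -0.13 (adjusted p = 0.308) after quantile normalization and -0.15 (adjusted p = 0.241) after cyclic loess. The 7 measured corticosteroid receptor and target genes had changes from -0.16 to -0.06, with Per1, a clock gene induced by glucocorticoids, at -0.15 (adjusted p = 0.424). The 9 genes of endoplasmic reticulum stress had a median of -0.04, with the stress sensor Atf6 at -0.20 (adjusted p = 0.28). The 5 C1q-like genes and receptors ran from -0.10 in the kainate receptor Grik4 (adjusted p = 0.497) to -0.01, the 8 desmosome genes had a median of -0.05 with Pkp4 at -0.17 (adjusted p = 0.199), and Amigo1 was at -0.10 (adjusted p = 0.299). Of 10 kynurenine pathway genes, with a median of 0.02, the nearest to the threshold was Kmo, the enzyme that makes hydroxykynurenine, at 0.14 (adjusted p = 0.194).

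Lists for neighbouring tissue and for other cells gave the mean signal of their markers in each array. The thalamus and habenula list averaged 8.04 to 8.11 in TPlp+AxL and 8.07 to 8.16 in AxL, and its gene nearest to the threshold, Gng8, had a change of -0.10 (adjusted p = 0.469 in limma). The neocortex and subiculum list averaged 9.22 to 9.51 in TPlp+AxL and 9.16 to 9.56 in AxL, with Lamp5 at -0.07 (adjusted p = 0.569). All 9 choroid plexus genes had a change under 0, with a median of -0.33 and Kl at -0.43 (adjusted p = 0.572), and their level followed the 3 arrays given above more than the groups. With those 3 arrays left out together, Nnat had a change of -0.58 (adjusted p = 0.237) and 1 of all probe sets passed. The leukocyte list, with a median of 0.67 over 10 genes, held the 5 genes that rose, led by Plac8 at 1.92 (adjusted p = 0.00281 in limma) and Lyz2, the lysozyme of myeloid cells, at 0.90 (adjusted p = 0.04). Plac8 passed with each of the 10 arrays left out in turn, and Lyz2 with 2 of them, where its adjusted p ran from 0.0115 to 0.124. The leukocyte means of the 2 groups did not overlap, as those of Nnat did not, and their part in the Nnat difference was not tested.

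The genes most like 4 of the members were found by Pearson's r of values centred on their group means over the 10 arrays, as a description of these arrays, since AxL 4 and the choroid plexus arrays are shared by all genes. For C1ql2 they were Tmem121b (r = 0.988), the neurotrophin receptor gene Ntrk3 (0.985) and Lingo1 (0.982), and without AxL 4 these values were 0.91, 0.896 and 0.869. For Fibcd1 they were Bri3bp (0.978), Ube2d1 (0.973) and Diablo (0.973), at 0.956, 0.949 and 0.966 without AxL 4. The values of these Fibcd1 genes fell less without AxL 4 than those of the C1ql2 genes. All were picked as the highest r among the other genes of the 18193, over only 10 arrays. How high r would reach among unrelated genes was not tested. Values over 9 of the same arrays are no separate check of likeness. For Nnat they were the copine gene Cpne7 (0.941), 2810029C07Rik (0.939) and Cnbd2 (0.926), at 0.928, 0.926 and 0.909 without AxL 4. For the brighter Amigo2 probe set they were Ptafr (0.954), Rbm11 (0.953) and Map3k21 (0.936), at 0.939, 0.9 and 0.868 without AxL 4. None of these 12 genes passed the threshold between the groups, and the 3 of Nnat had changes of -0.18, -0.11 and -0.05.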

How the data were processed

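Biotin-labelled RNA of 10 whole hippocampi was measured on mouse Affymetrix arrays, 1 mouse per array. The deposited values are log2 signals. The submitters' processing notes name RMA as the authors' method, and its software is not given in the sources used here. RMA includes a step that draws arrays to a shared distribution. The deposited arrays did not share one exactly, with medians of 7.90 to 7.92 in TPlp+AxL and 7.88 to 7.90 in AxL. A further quantile normalization moved the Nnat change from -0.49 to -0.38. RMA gives no detection call, so a dim probe set may hold background. No array repeated another (0 identical), 0 values were missing, and the signals lay between 5.45 and 14.86, with array medians of 7.88 to 7.92. The number of arrays limits the precision.

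After removal of 64 control probe sets, 45037 were tested without a filter. The difference TPlp+AxL minus AxL was fitted with lmFit and eBayes, no trend, of limma 3.58.1 (R 4.3.3), and p-values were adjusted over all of these probe sets by Benjamini-Hochberg. Of the probe sets, 34945 had 1 platform symbol, 932 several and 9160 none. Symbols were updated through Entrez identifiers for 34741 of them with a GRCm38.p6 gene table. A gene's brightest probe set has the highest mean over the 10 arrays.

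All members are named with every probe set. From each list, the up to 2 most changed genes that passed are named, or else the 1 of smallest p, and 4 members give their 3 likest genes. Arc, Nptx2, Prox1, Blcap and Igfbp5 were named after their values were seen. Members, lists and rules were chosen with earlier results of these data known. Of 135 listed genes, 14 were not analysed here.

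Replicate numbers run from 1 to 5 in both groups. The deviations of same-numbered arrays correlated at -0.13, 0.36, 0.27, -0.22 and -0.08, so the numbers were not taken to pair the mice. The alternatives were a trended robust variance, dim probe sets left out, array medians subtracted, quantile or cyclic loess normalization, array weights, 1 probe set per gene, a replicate block and each array left out. Leaving out the 3 arrays with high choroid plexus genes was added after seeing the data.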

Additional observations from a re-analysis of the deposited data

Results flagged for a closer look

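In 28 groups of 5 values, 14 probe sets in each group of mice, the gap of an end value to its nearest neighbour was divided by the range and set against Dixon's critical value of 0.71, which chance passes in about 1 in 20 groups. It was passed in 2, both of them Tdo2 in AxL 4. The brightest Tdo2 probe set was 6.97 in AxL 4, where the nearest AxL array had 8.22 (gap over range 0.938). The second was 7.37, where the nearest had 7.69 (0.826).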

How the results depend on the processing

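Over the alternatives, 228 of 258 member values kept their direction and their side of the threshold, 20 changed sign and 10 lost the call, all of the last being Nnat. The number of members past the threshold, 1 in the reported fit, was 0 after quantile and after cyclic loess normalization and with the 3 choroid-rich arrays left out, and 0 to 1 with single arrays left out. The Nnat adjusted p with 1 array out was 0.0843, 0.0499, 0.0528, 0.125 and 0.0494 without TPlp+AxL 1 to 5, and 0.0971, 0.0699, 0.0474, 0.0778 and 0.101 without AxL 1 to 5. Over all probe sets the reported count of 376 was 753 with array weights, 241 with the replicate block, 1 with the 3 arrays left out, and 185 (without TPlp+AxL 4) to 460 (without AxL 2) with single arrays left out, including 240 without TPlp+AxL 3, 243 without TPlp+AxL 5 and 220 without AxL 5. Its 291 higher and 85 lower were 269 and 210 with array medians subtracted, and 348 and 43 after loess. The 7 companion genes were 12 with array weights, 0 with the 3 arrays out, and 4 (without TPlp+AxL 4, AxL 1 or AxL 5) to 9 with single arrays out.

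Some changes turned sign. Pcp4 was 0.04 after quantile and 0.02 after loess normalization, the brightest Amigo2 probe set 0.01 and 0.02, and Lamp5 0.0017 and 0.01. The second Dsp probe set was -0.03 with array medians subtracted and -0.09 with array weights, and the brightest Tdo2 probe set was -0.08 with weights. With the 3 arrays out, the brightest Amigo2 probe set was 0.01 and the brightest Dsp one 0.0011. With single arrays out, the ranges were -0.03 to 0.01 for the brightest Amigo2, -0.13 to 0.10 for the second Dsp, and -0.16 to 0.18, -0.02 to 0.07 and -0.13 to 0.01 for the 3 Tdo2 probe sets. The cause was not tested. Of 358 values of named companion genes, 325 were unchanged in direction and call, 2 turned (Lamp5), 27 lost the call and 4 gained it.

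The replicate block, tried although the numbers do not pair the mice (only number 2 correlated best with its own number), left Nnat past the threshold (adjusted p = 0.0378) and took the call from Lyz2 (adjusted p = 0.0812) and Atp2a2 (adjusted p = 0.153). Atp2a2 also lost it with a trended variance (adjusted p = 0.0841). Syp gained a call with array medians subtracted (adjusted p = 0.0404), with array weights (adjusted p = 0.0181), with 1 probe set per gene (adjusted p = 0.0473) and without AxL 4. It gained none after quantile (adjusted p = 0.138) or cyclic loess normalization (adjusted p = 0.166), or with the replicate block (adjusted p = 0.136). With the other 9 arrays left out in turn it gained none either, and its highest adjusted p was 0.179.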

Other observations

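AxL 4 was also the highest array in 7 of 9 genes of endoplasmic reticulum stress and in 7 of 13 general neuronal genes, and its neuronal list mean was 12.38, against 11.95 to 12.18 in TPlp+AxL and 12.15 to 12.25 in the other AxL arrays. Inhba, an activin subunit that neuronal activity induces, was 10.30 in AxL 4 and 8.80 to 9.05 in the other 9 arrays. Penk, the enkephalin precursor, was 11.30 in AxL 4 and 9.92 to 10.34 in the others. Both were picked after their values were seen.

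TPlp+AxL 3 was the lowest of the 10 arrays in 4 member probe sets, those of Fibcd1, Nnat, C1ql2 and the second of Amigo2. Over all probe sets it was lowest in 7.71%. It had the highest leukocyte list mean, 10.29, and the lowest CA3 list mean, 9.46, while its dentate list mean of 9.98 was the highest in TPlp+AxL. These values were picked after they had been seen, and a link between them was not tested.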
